A study of Mus musculus with 30 samples.

Results

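Complement transcripts were followed in mouse bone marrow-derived macrophages through 8 genes: C3, Cfb, C1qa, C1qb, C1qc, Cfp, C3ar1 and C5ar1. They were taken by symbol from the 32361 Ensembl genes of the deposited count table, and all 8 passed the filter on low counts in the 30 libraries. Macrophages were grown from C57BL/6J marrow in medium with L929 supernatant, which supplies M-CSF, and came from Ticam2-/- mice (KO; Ticam2 encodes the Toll-like receptor adaptor TRAM) or from wild-type mice (WT). The KO groups were LPS 10 ng/mL for 2 h, LPS 10 ng/mL for 6 h, LTA 100 ng/mL for 2 h, LTA 100 ng/mL for 6 h and untreated, and the WT groups were the same 5. Each group held 3 libraries, each from the cells of 1 animal, with 3 animals per genotype, so the groups of a genotype share animals. No source used here gives the animals' age. LPS (lipopolysaccharide) is a Gram-negative ligand of Toll-like receptor 4, for which TRAM bridges to the adaptor TRIF, and LTA (lipoteichoic acid) is a Gram-positive ligand sensed chiefly by Toll-like receptor 2.

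Complement is a protease cascade of the blood and tissues that tags and lyses microbes. C1q, assembled from the chains encoded by C1qa, C1qb and C1qc, opens the classical pathway; C3 is the component on which the pathways converge, factor B (Cfb) is the protease of the alternative pathway convertase, and properdin (Cfp) stabilises that convertase. Cleavage of C3 and C5 releases the anaphylatoxins, which signal through the G protein-coupled receptors encoded by C3ar1 and C5ar1, and macrophages are a local source of C1q, C3, factor B and properdin.

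Depth was 10641070 to 13521660 counts per library for untreated and 6 h samples but 1334784 to 2658329 at 2 h. Ticam2 itself was counted 5 to 26 times in the 9 KO libraries of the deeper set, against 120.5 to 259.5 in the 9 WT libraries, and 1 to 14 times in KO against 15 to 28 in WT at 2 h. All 10 macrophage markers were detected in both sets. The 2 h libraries stood apart from the rest. Their summed red cell markers were at 0 to 0.456 counts per 1e6 (CPM), against 5600 to 7733 CPM in the others. Summed liver markers were at 83.6 to 139 CPM at 2 h and 50.9 to 67.0 CPM in the others, and within that list Alb (albumin) was at 38.3 to 82.3 CPM at 2 h and at 0 in the 18 others, while Ttr (transthyretin) was at 0 at 2 h and at 19.7 to 28.7 CPM in the others. Mitochondrial transcripts took 4.85% to 6.87% of counts at 2 h and 2.62% to 3.93% in the others. A 2 h library set against untreated libraries therefore compares time and library set together, and these cannot be told apart. Levels below are CPM after scaling by trimmed mean of M-values (TMM), except those of cell type markers, which are CPM of total counts throughout. Because the scaling factors averaged 0.699 in WT LPS 6 h and 0.748 in WT LTA 6 h, against 1.00 to 1.15 in the other groups, scaling by total counts placed the median of all genes at -0.66 with LPS and -0.58 with LTA (log2) in WT at 6 h, and at 0.54 and 0.44 for KO over WT after the same ligands. Directions that turned under total counts are named where they arise.

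C3 lies on the minus strand of chromosome 17, Cfb on the minus strand of the same chromosome, and the C1q genes side by side on the minus strand of chromosome 4 in the order C1qb, C1qc and C1qa. In GRCm38 the genes span chr17:57203970-57228136 (C3, ENSMUSG00000024164), chr17:34856374-34862518 (Cfb, ENSMUSG00000090231), chr4:136880129-136886187 (C1qb, ENSMUSG00000036905), chr4:136889804-136893065 (C1qc, ENSMUSG00000036896), chr4:136895917-136898803 (C1qa, ENSMUSG00000036887), chrX:20925454-20931555 (Cfp, ENSMUSG00000001128), chr6:122847138-122856161 (C3ar1, ENSMUSG00000040552) and chr7:16246743-16259540 (C5ar1, ENSMUSG00000049130). RefSeq promoter sequence (GRCm38.p6) was matched for 6 of the 8 members. The 250 bases before the RefSeq start are given for C3 and C3ar1, whose genotype differences are the widest among the members with a sequence, and for the neighbours C1qb and C1qc, which are compared as a ratio. Capitals mark matches to the searched motifs, each read 5′ to 3′ on the gene's strand, from chr17:57228137-57228386, chr6:122856158-122856407, chr4:136886201-136886450 and chr4:136892915-136893164, all minus strand.
C3 promoter: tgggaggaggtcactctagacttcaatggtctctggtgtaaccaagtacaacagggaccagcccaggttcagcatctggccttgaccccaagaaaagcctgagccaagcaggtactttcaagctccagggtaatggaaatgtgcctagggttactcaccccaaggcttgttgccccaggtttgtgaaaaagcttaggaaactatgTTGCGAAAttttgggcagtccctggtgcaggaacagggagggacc
C3ar1 promoter: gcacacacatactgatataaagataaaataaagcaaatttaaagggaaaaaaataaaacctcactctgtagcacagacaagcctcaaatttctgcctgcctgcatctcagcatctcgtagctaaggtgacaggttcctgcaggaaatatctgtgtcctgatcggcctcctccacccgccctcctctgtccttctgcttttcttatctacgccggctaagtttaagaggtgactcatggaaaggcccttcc
C1qb promoter: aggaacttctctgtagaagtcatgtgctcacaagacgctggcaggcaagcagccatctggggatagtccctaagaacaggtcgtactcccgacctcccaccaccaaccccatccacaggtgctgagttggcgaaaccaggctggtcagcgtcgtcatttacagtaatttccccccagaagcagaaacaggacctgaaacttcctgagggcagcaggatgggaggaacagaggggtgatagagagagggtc
C1qc promoter: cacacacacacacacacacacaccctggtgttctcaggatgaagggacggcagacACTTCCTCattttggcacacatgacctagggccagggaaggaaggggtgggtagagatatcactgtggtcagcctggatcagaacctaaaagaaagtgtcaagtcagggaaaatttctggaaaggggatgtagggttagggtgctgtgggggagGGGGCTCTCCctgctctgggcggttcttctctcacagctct
Both strands were searched for an interferon-stimulated response element core, a gamma-activated site (TTCNNNGAA), a C/EBP core (TTGCNNAA), a PU.1 core (GAGGAAGT) and the NF-kB consensus. Of 32851 promoters of this length, 2.98% held the first, 7.02% the gamma-activated site, 9.56% the C/EBP core, 2.44% the PU.1 core and 3.9% the NF-kB consensus. The C3 promoter held 1 C/EBP core at -45 to -38 from the start. The C1qc promoter held a PU.1 core on the opposite strand at -195 to -188 and an NF-kB consensus at -41 to -32. Because the RefSeq start of C1qc lies inside the Ensembl span given above, part of its window, the NF-kB match included, lies within that span, as do the last bases of the C3ar1 window. No 2 matches overlapped, and the windows of C3ar1 and C1qb held none of these letters. A match describes the sequence alone.

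C3 and Cfb rose with both ligands at 6 h in both genotypes, and both ended lower in KO than in WT macrophages, Cfb by far the more. C3 measured 106, 103 and 104 CPM in KO LPS 6 h libraries and 51.1, 47.8 and 51.0 CPM in untreated KO libraries. In WT it measured 279, 298 and 290 CPM after 6 h of LPS and 87.2, 87.1 and 81.4 CPM untreated. The 4 sets of libraries did not overlap, and every LPS-treated KO library stayed below every LPS-treated WT library. The log2 fold change of C3 with LPS was 1.06 ± 0.05 (SE) in KO, a 2.09-fold rise, and 1.76 ± 0.04 in WT, a 3.39-fold rise (edgeR quasi-likelihood test, Benjamini-Hochberg adjusted p 3.43e-26 and 6.64e-39). The 2 responses differed by -0.70 ± 0.07 (adjusted p 2e-13), or by -0.19 under total counts.

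With LTA, C3 reached 129, 120 and 122 CPM in KO and 232, 231 and 221 CPM in WT at 6 h. All KO libraries again lay below all WT libraries. The rises over untreated were close in size, 1.31 ± 0.05 in KO and 1.42 ± 0.04 in WT on the log2 scale (adjusted p 2.58e-30 and 3.47e-34), and the difference of -0.11 ± 0.07 did not pass the edgeR test (adjusted p 0.176). That difference was -0.19 with relative log expression factors (adjusted p 0.0138) and turned to 0.31 under total counts. Within KO, C3 was lower after LPS than after LTA (-0.24 ± 0.05, adjusted p 0.000448), whereas within WT it was higher after LPS (0.34 ± 0.04, adjusted p 1.14e-09). The ligand contrast differed between genotypes by -0.58 ± 0.06 (adjusted p 2.47e-11, edgeR).

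Untreated KO macrophages already held less C3: -0.77 ± 0.05 on the log2 scale against WT (adjusted p 1.73e-18, edgeR), with no overlap of the libraries. The gap was -1.47 ± 0.04 after LPS and -0.88 ± 0.04 after LTA at 6 h (adjusted p 3.22e-35 and 7.86e-25). Under total counts these 6 h gaps shrank to -0.94 and -0.45 and kept their direction. Within a library, counts of C3 over those of C1qb avoid any scaling factor. This ratio averaged 0.0735 ± 0.0049 in KO LPS 6 h and 0.172 ± 0.0073 in WT LPS 6 h (SD, n = 3 each), and it averaged 0.0309 ± 0.0010 in untreated KO and 0.0527 ± 0.0023 in untreated WT libraries.

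**Figure D1:**
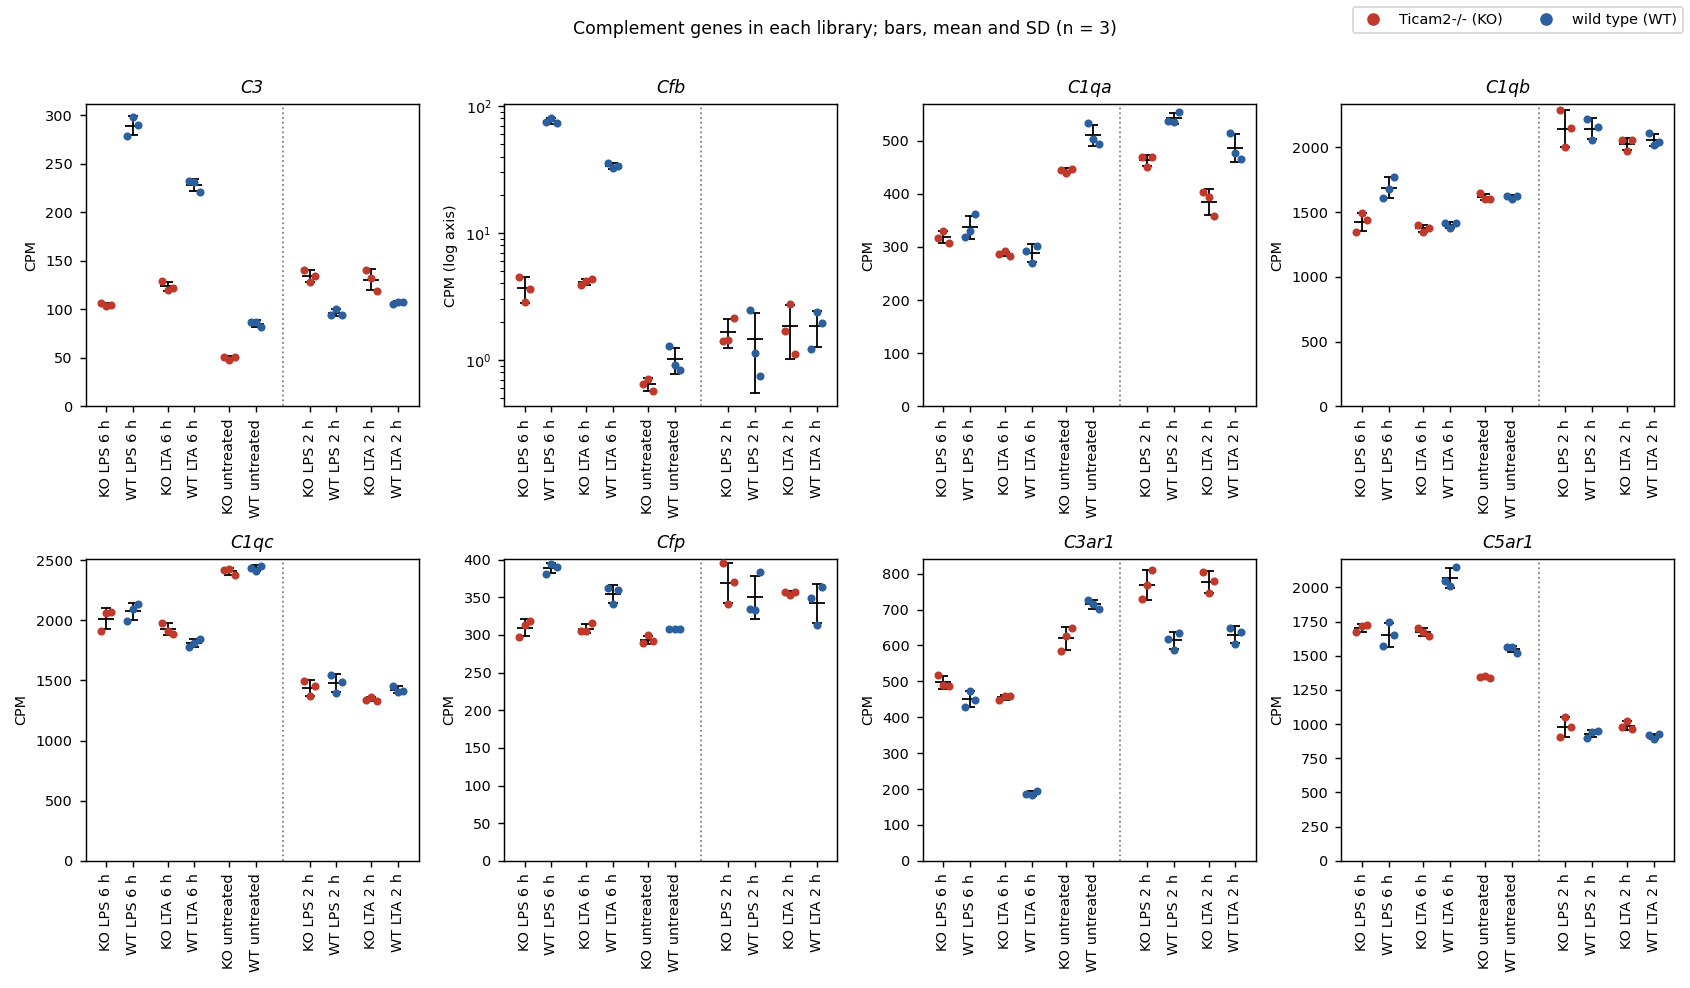
Each panel plots TMM-scaled CPM of 1 gene by group, with 1 point per library and bars for the mean and SD of 3 libraries; Cfb is on a log axis, and a dotted line parts the untreated and 6 h libraries from the shallower 2 h set. C3 averaged 105 CPM in KO LPS 6 h and 289 CPM in WT LPS 6 h, and C3ar1 averaged 455 CPM in KO LTA 6 h and 187 CPM in WT LTA 6 h.

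At 2 h the order of the genotypes for C3 was turned round. C3 measured 140, 129 and 134 CPM in KO LPS 2 h libraries, against 93.9, 101 and 94.3 CPM in WT LPS 2 h libraries. After LTA it measured 140, 132 and 119 CPM in KO and 105, 108 and 107 CPM in WT. Every KO library of the 2 h set lay above every WT library of the same ligand. KO against WT was 0.47 ± 0.07 with LPS and 0.30 ± 0.07 with LTA on the log2 scale (adjusted p 9.75e-07 and 0.0023, edgeR). Without KO LTA 2 h replicate 1, the LTA value was 0.24 (adjusted p 0.0527). The same direction appeared within libraries, where C3 over C1qb averaged 0.0627 ± 0.0015 in KO and 0.0450 ± 0.0034 in WT with LPS, and 0.0645 ± 0.0056 in KO and 0.0521 ± 0.0018 in WT with LTA.

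The change of the genotype gap between 2 h and 6 h, a contrast added after the C3 values were seen, was 1.94 ± 0.08 with LPS and 1.18 ± 0.08 with LTA (adjusted p 6.56e-27 and 9.2e-18, edgeR). It compares each KO set with a WT set of its own library set, but time and library set still change together. Summed liver markers, 9 of 12 listed genes being in the table, were at 84.7 to 103 CPM in KO LPS 2 h, 83.6 to 96.4 CPM in WT LPS 2 h, 85.6 to 127 CPM in KO LTA 2 h and 86.1 to 139 CPM in WT LTA 2 h. Summed fibroblast markers, led by the collagen gene Col1a1, were at 61.0 to 112 CPM in KO LPS 2 h, 63.1 to 72.4 CPM in WT LPS 2 h, 63.3 to 125 CPM in KO LTA 2 h and 66.1 to 112 CPM in WT LTA 2 h. The ranges of the genotypes overlapped in both lists. The mitochondrial share was 4.85% to 5.70% in KO and 5.43% to 5.99% in WT with LPS, which overlapped, and 4.93% to 5.53% in KO and 6.20% to 6.87% in WT with LTA, which did not. The part of these transcripts in the C3 and C3ar1 values at 2 h was not tested. Against untreated libraries, C3 at 2 h stood at 1.42 ± 0.06 with LPS and 1.39 ± 0.06 with LTA in KO, and at 0.17 ± 0.06 and 0.33 ± 0.06 in WT, values in which time and library set cannot be told apart. The WT value with LPS lost its call without any 1 of the WT LPS 2 h libraries or without untreated WT replicate 3 (adjusted p up to 0.161), and with no filter (0.12, adjusted p 0.284). Over all members, 7 of 8 passed against untreated in KO LPS 2 h (57.2% of all genes), 8 in KO LTA 2 h (56%), 6 in WT LPS 2 h (45%) and 6 in WT LTA 2 h (43%). The Cfb call in KO LPS 2 h rests on 2, 4 and 3.5 counts. It was lost in 4 of 6 single omissions (adjusted p up to 0.174, edgeR), under total counts (adjusted p 0.0538) and with no filter (adjusted p 0.0855). In KO LTA 2 h the Cfb call was lost in 1 of 6 omissions (adjusted p up to 0.171). The genotype difference in the 2 h responses was called for 3 members with LPS (17.9%) and 3 with LTA (15.4%), and the change of the gap between 2 h and 6 h for 5 with LPS (45.5%) and 7 with LTA (40.6%).

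Cfb showed the widest genotype difference of the 8 genes. Its counts need care: an annotated readthrough gene, Gm20547, covers Cfb on the same strand, and the deposited counts of the 2 genes were equal in 21 of 30 libraries within 0.005 counts and at most 2.5 counts apart in the rest. The Cfb value is therefore about an equal share of the counts assigned to the pair. On these shares, Cfb was counted 55, 35.5 and 48.5 times in KO LPS 6 h, against 609.5, 688.83 and 655.83 times in WT LPS 6 h. The levels were 4.52, 2.86 and 3.60 CPM in KO and 74.4, 80.6 and 73.9 CPM in WT. Each WT library stood far above each KO library, with no overlap.

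Untreated, Cfb was at 0.644, 0.712 and 0.567 CPM in KO and at 1.28, 0.919 and 0.830 CPM in WT, and these values rest on 7.5 to 18 counts. LPS raised it by 2.49 ± 0.24 in KO (5.60-fold) and by 6.20 ± 0.11 in WT (73.5-fold) on the log2 scale (adjusted p 3.66e-13 and 1.27e-45, edgeR). The difference of the 2 responses was -3.71 ± 0.41 (adjusted p 2.57e-11). LTA took it to 3.86, 4.19 and 4.32 CPM in KO and to 35.4, 32.2 and 33.4 CPM in WT, rises of 2.66 ± 0.24 and 5.02 ± 0.13. KO against WT was -4.38 ± 0.09 after LPS and -3.03 ± 0.10 after LTA (adjusted p 6.5e-43 and 6.06e-32). With Cfb and Gm20547 summed these were -4.38 after LPS and -3.02 after LTA, and under total counts -3.86 and -2.59.

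In WT, Cfb was higher after LPS than after LTA (1.18 ± 0.06, adjusted p 8.94e-23), while in KO the 2 ligands gave overlapping values (-0.17 ± 0.16, adjusted p 0.714). The ligand contrast differed between genotypes by -1.35 ± 0.18 (adjusted p 8.17e-09, edgeR). At 2 h Cfb had only 2 to 5.5 counts per library, at or close to the 3 counts that a count of 0 allows, and no genotype difference was detectable at this depth. Untreated KO and WT did not differ by the test either (-0.66 ± 0.32, adjusted p 0.238), although the 3 KO values lay below the 3 WT values.

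Properdin transcripts changed far less. Cfp measured 298, 314 and 318 CPM in KO LPS 6 h and 382, 395 and 390 CPM in WT LPS 6 h, and untreated 289, 299 and 292 CPM in KO and 308, 308 and 308 CPM in WT. The KO libraries of both conditions overlapped and the WT libraries did not. Cfp rose in WT by 0.34 ± 0.04 with LPS and 0.20 ± 0.04 with LTA (adjusted p 8.21e-10 and 3.86e-05, edgeR), but under total counts these became -0.36 and -0.39. In KO the values were 0.08 ± 0.04 and 0.07 ± 0.04 (adjusted p 0.128 and 0.17), and -0.12 and -0.11 under total counts. KO against WT was -0.33 ± 0.04 after LPS and -0.20 ± 0.04 after LTA, turning to 0.20 and 0.24 under total counts, so no direction that holds under each scaling can be given for Cfp at 6 h.

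The 2 anaphylatoxin receptors went apart. C3ar1, the receptor of C3a, fell with both ligands at 6 h in both genotypes, and fell furthest in WT macrophages given LTA. It measured 447, 458 and 460 CPM in KO LTA 6 h and 584, 627 and 647 CPM in untreated KO libraries. In WT it measured 185, 183 and 194 CPM after LTA and 727, 715 and 701 CPM untreated. Every LTA-treated library lay below every untreated library of its genotype, and the 3 WT LTA libraries were the lowest of the 30. The log2 fold changes were -0.45 ± 0.04 in KO and -1.93 ± 0.04 in WT (adjusted p 1.51e-13 and 1.09e-40, edgeR). Their difference was 1.49 ± 0.06 (adjusted p 6.42e-28), and KO against WT after LTA was 1.28 ± 0.04 (adjusted p 6.97e-32), a level 2.43-fold higher in KO.

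After LPS, C3ar1 measured 518, 489 and 486 CPM in KO and 428, 474 and 449 CPM in WT. Both were below their untreated libraries, by -0.32 ± 0.04 in KO and -0.67 ± 0.04 in WT (adjusted p 3.63e-09 and 1.33e-20, edgeR). The difference of the responses was 0.35 ± 0.06 (adjusted p 1.31e-06). KO lay above WT by 0.14 ± 0.04 (adjusted p 0.00257), a small gap that was 0.07 with relative log expression factors (adjusted p 0.159) and 0.67 under total counts. Without WT LPS 6 h replicate 1 or replicate 3 it also missed the threshold, with a lowest value of 0.06.

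LPS and LTA therefore left C3ar1 at different levels in WT (1.27 ± 0.04, adjusted p 8.07e-31), whereas the KO contrast was 0.13 ± 0.04 and missed the threshold (adjusted p 0.0839, edgeR; 0.0293 with DESeq2). The genotype difference in this contrast was -1.14 ± 0.06 (adjusted p 6.23e-22). Untreated, C3ar1 was lower in KO (-0.20 ± 0.04, adjusted p 0.000188). At 2 h it measured 728, 767 and 810 CPM in KO and 619, 588 and 635 CPM in WT with LPS, and 805, 746 and 780 CPM in KO and 650, 603 and 636 CPM in WT with LTA. All KO libraries of that set lay above all WT libraries, by 0.32 ± 0.05 and 0.30 ± 0.05 (adjusted p 3.9e-07 and 2.15e-06).

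C5ar1, the signalling receptor of C5a, rose while C3ar1 fell, although in WT its direction turned under total counts. It measured 1706, 1670 and 1648 CPM in KO LTA 6 h and 1346, 1349 and 1340 CPM in untreated KO, against 2048, 2010 and 2147 CPM in WT LTA 6 h and 1563, 1562 and 1521 CPM in untreated WT. The LTA libraries lay above the untreated ones in both genotypes. The rises with LTA were 0.32 ± 0.04 in KO and 0.42 ± 0.04 in WT (adjusted p 1.08e-09 and 7.83e-14, edgeR), and total counts left 0.13 in KO and turned the WT value to -0.18. With LPS the rise was 0.34 ± 0.04 in KO (adjusted p 1.28e-10) and 0.10 ± 0.04 in WT (adjusted p 0.0282), the WT value turning to -0.60 under total counts. That WT value lost its call without WT LPS 6 h replicate 2 or without any 1 of the 3 untreated WT libraries (0.07 to 0.17 over the 6 omissions, adjusted p up to 0.136), and with no filter (0.04, adjusted p 0.519). Untreated KO was lower than WT by -0.20 ± 0.04 (adjusted p 0.000114). After LTA it was lower by -0.30 ± 0.04 (adjusted p 2.03e-09), which turned to 0.13 under total counts.

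Within WT, C5ar1 was lower after LPS than after LTA (-0.32 ± 0.04, adjusted p 1.15e-09), the only member for which this contrast was negative. In KO it did not pass (0.02 ± 0.04, adjusted p 0.855), and the genotypes differed in it by 0.35 ± 0.06 (adjusted p 1.63e-06, edgeR).

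The ratio of C3ar1 to C5ar1 counts within a library needs no scaling factor. It was 0.262, 0.274 and 0.279 in KO LTA 6 h and 0.0902, 0.0909 and 0.0904 in WT LTA 6 h. After LPS it was 0.310, 0.285 and 0.282 in KO and 0.273, 0.272 and 0.272 in WT, and untreated it was 0.434, 0.465 and 0.483 in KO and 0.465, 0.458 and 0.461 in WT. Untreated genotypes overlapped, all 6 h libraries lay below all untreated ones, and the WT LTA libraries lay below everything else. At 2 h the ratio was 0.731 to 0.825 in KO LPS, 0.622 to 0.689 in WT LPS, 0.729 to 0.824 in KO LTA and 0.678 to 0.708 in WT LTA. Time and library set cannot be told apart in these values.

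**Figure D2:**
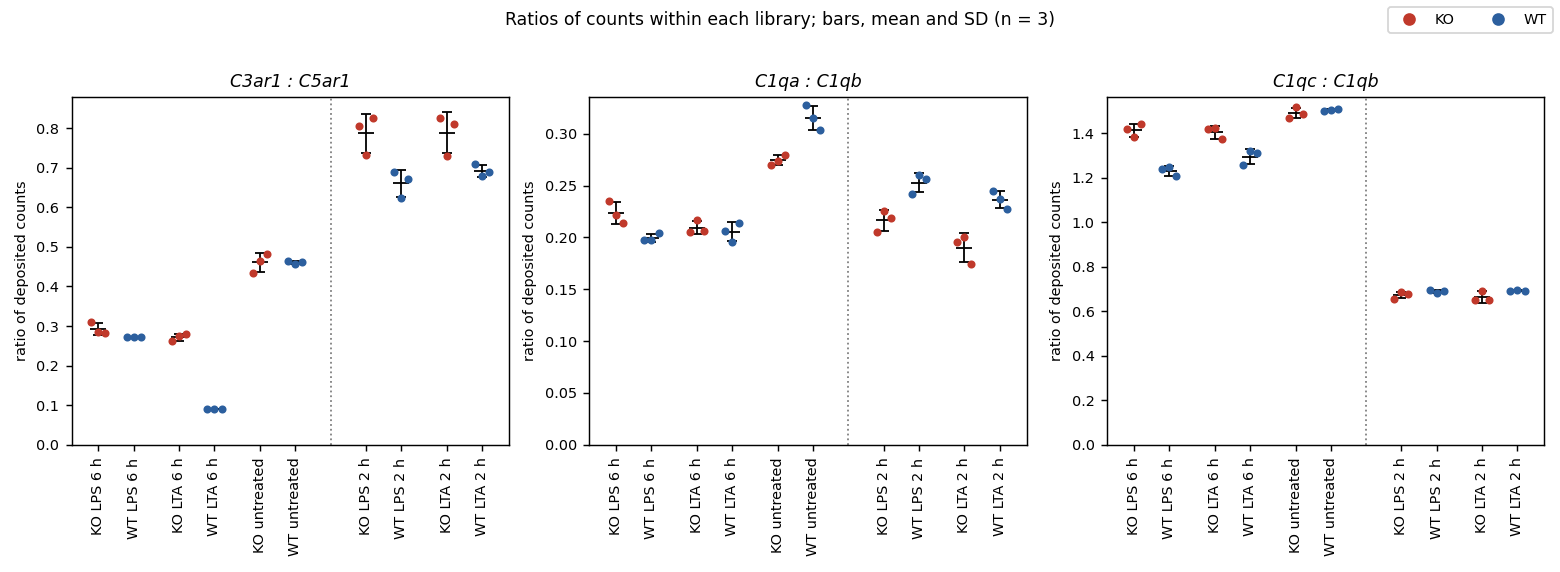
Ratios of deposited counts between pairs of genes within each library are plotted by group, with 1 point per library and bars for the mean and SD of 3 libraries. The C3ar1 to C5ar1 ratio averaged 0.272 in KO LTA 6 h and 0.0905 in WT LTA 6 h, and the C1qc to C1qb ratio lay at 1.21 to 1.52 in the 18 untreated and 6 h libraries and at 0.648 to 0.697 in the 12 libraries of 2 h, right of the dotted line.

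The C1q chains moved modestly under TMM scaling and further under total counts, and C1qa had the largest of their falls in each 6 h response. C1qa measured 317, 330 and 307 CPM in KO LPS 6 h and 444, 439 and 447 CPM in untreated KO. In WT it measured 319, 330 and 361 CPM after LPS and 533, 504 and 494 CPM untreated. All LPS libraries lay below all untreated libraries, and the 2 genotypes overlapped after LPS. C1qa fell by 0.48 on the log2 scale in KO and by 0.60 in WT with LPS, and by 0.63 in KO and 0.82 in WT with LTA (SE 0.04 each, adjusted p 3.33e-14, 4.55e-18, 2.19e-18 and 1e-23, edgeR). Untreated KO was lower than WT by -0.20 ± 0.04 (adjusted p 0.000397).

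C1qc fell by 0.26 in KO and 0.23 in WT with LPS and by 0.32 in KO and 0.42 in WT with LTA (SE 0.04 each; highest adjusted p 3.71e-07, edgeR). Its levels averaged 2012 ± 87 CPM in KO LPS 6 h and 2408 ± 27 CPM in untreated KO, against 2075 ± 72 CPM in WT LPS 6 h and 2433 ± 24 CPM in untreated WT (SD, n = 3 each). C1qb fell in 3 of the 4 responses, by 0.18 with LPS in KO, by 0.24 with LTA in KO and by 0.21 with LTA in WT (highest adjusted p 0.000125). Under total counts these C1qb falls were 0.38, 0.42 and 0.80 in that order. Those of C1qc were 0.45 in KO and 0.93 in WT with LPS, and 0.50 and 1.02 with LTA. In WT LPS, C1qb was at 1612, 1675 and 1773 CPM, overlapping the 1627, 1601 and 1625 CPM of untreated WT. That value, 0.06 ± 0.04 (adjusted p 0.177), became 0.14 with relative log expression factors (adjusted p 0.00267) and -0.64 under total counts. KO against WT after LPS was -0.24 ± 0.04 for C1qb (adjusted p 5.9e-07), turning to 0.28 under total counts. For C1qa and C1qc it was -0.08 ± 0.04 and -0.04 ± 0.04 (adjusted p 0.0964 and 0.316). These became -0.16 and -0.12 with relative log expression factors, where both passed (adjusted p 0.00134 and 0.00582), and turned to 0.44 and 0.48 under total counts. Both also passed without WT LPS 6 h replicate 1 (-0.17 and -0.12, adjusted p 0.00154 and 0.0117), and C1qa without WT LPS 6 h replicate 2. After LTA the C1qc value was 0.09 ± 0.04 (adjusted p 0.0451), and only the omission of KO LTA 6 h replicate 3 left it called among the 6 single omissions in that contrast (0.02 to 0.11, adjusted p up to 0.765). It was 0.0092 with relative log expression factors (adjusted p 0.857) and 0.52 under total counts.

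Ratios between the chains showed that C1qa and C1qc fell relative to C1qb without any scaling. C1qa over C1qb averaged 0.223 ± 0.011 in KO LPS 6 h, 0.209 ± 0.0063 in KO LTA 6 h and 0.275 ± 0.0048 in untreated KO (SD, n = 3 each). In WT the ratio averaged 0.200 ± 0.0038 after LPS, 0.205 ± 0.0093 after LTA and 0.315 ± 0.012 untreated. Untreated KO lay at 0.270 to 0.280 and untreated WT at 0.304 to 0.327, without overlap. C1qc over C1qb averaged 1.41 ± 0.029 in KO LPS 6 h and 1.49 ± 0.024 in untreated KO, against 1.23 ± 0.023 in WT LPS 6 h and 1.50 ± 0.0056 in untreated WT. The treated ranges of this ratio lay below the untreated ranges in both genotypes, and after LPS all 3 WT libraries lay below all 3 KO libraries.

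At 2 h, C1qc over C1qb was 0.648 to 0.697 in all 12 libraries, whatever the genotype or ligand, against 1.21 to 1.52 in the 18 others. A fall of C1qc against untreated at 2 h (-0.74 ± 0.04 with LPS in KO and -0.72 ± 0.04 in WT) is thus a value in which library set and time cannot be told apart. Within the 2 h set, C1qa was lower in KO than in WT, by -0.23 ± 0.05 with LPS and -0.33 ± 0.05 with LTA (adjusted p 0.000648 and 3.69e-06, edgeR). It measured 469, 451 and 469 CPM in KO and 537, 535 and 554 CPM in WT with LPS, and 403, 395 and 358 CPM in KO and 515, 477 and 465 CPM in WT with LTA, with no overlap of the genotypes.

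**Figure D3:**
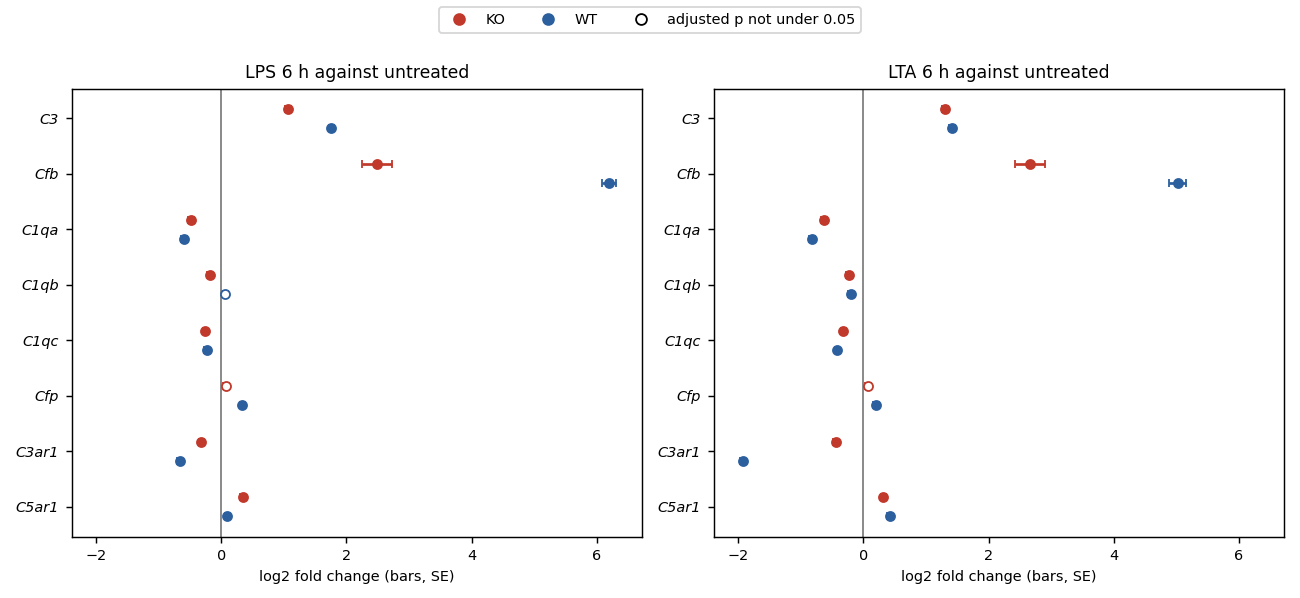
Points give log2 fold changes of the 8 genes at 6 h against untreated, LPS on the left and LTA on the right, with bars for SE and open points where the adjusted p was not under 0.05. Cfb rose by 2.49 in KO and 6.20 in WT with LPS, and C3ar1 was at -0.45 in KO and -1.93 in WT with LTA.

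Counted over the members, 7 of 8 passed the edgeR test in the KO LPS 6 h response, 3 higher and 4 lower, where 52.3% of all 15119 genes tested passed. In the KO LTA 6 h response 7 passed, again 3 higher and 4 lower (52.2% of all genes). In WT, 7 passed with LPS, 4 higher and 3 lower (72.7%), and 8 with LTA, 4 higher and 4 lower (71.3%). With such shares passing among all genes, the counts say little about complement, and the sizes of the changes carry the results. Under total counts 8 passed in each response, with 3 higher and 5 lower in KO and 2 higher and 6 lower in WT for either ligand. The median log2 fold change of the members was -0.05 in KO LPS, -0.08 in KO LTA, 0.08 in WT LPS and -0.002 in WT LTA, beside 0.006, 0, 0.03 and 0.01 over all genes tested.

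KO against WT gave 4 of 8 members called in untreated cells, all lower (13.5% of all genes; 7.47% lower), namely C3, C1qa, C3ar1 and C5ar1. After LPS 6 h 5 were called, 1 higher and 4 lower (63.3%), and after LTA 6 h 6 were called, 2 higher and 4 lower (58.5%). Under total counts the 6 h splits became 6 higher and 2 lower for both ligands, with C3 and Cfb the 2 that stayed lower, and with relative log expression factors 0 higher and 6 lower after LPS and 1 higher and 5 lower after LTA. At 2 h 3 were called with LPS (16.4%) and the same number with LTA (13%), each time C3 and C3ar1 higher and C1qa lower. The median over members was -0.20 untreated, -0.16 after LPS 6 h and -0.12 after LTA 6 h, beside -0.001, 0.01 and 0.01 over all genes.

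**Figure D4:**
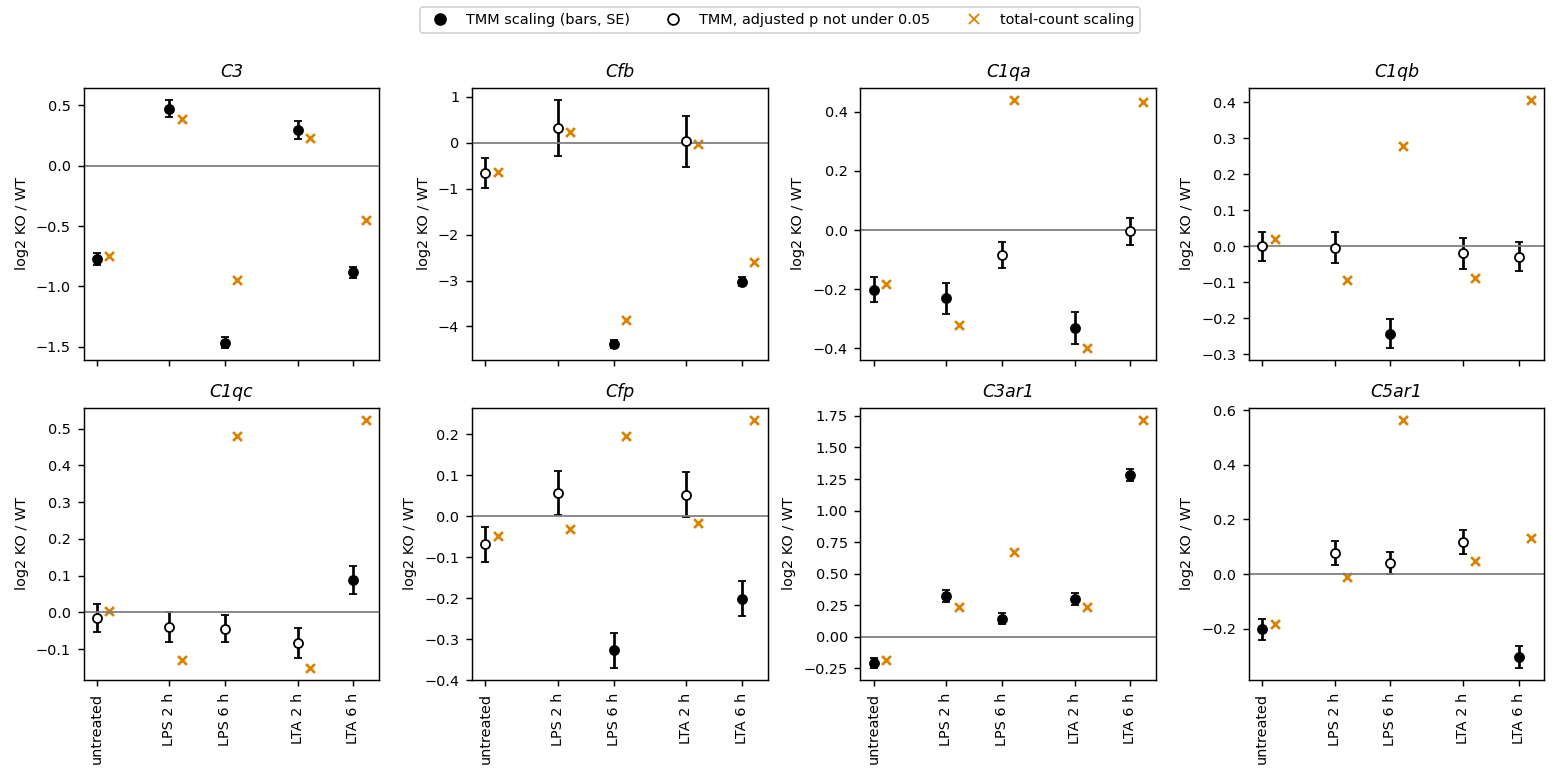
Each panel plots log2 KO over WT for 1 gene untreated and after 2 h and 6 h of each ligand; black points are TMM-scaled values with SE bars, open where the adjusted p was not under 0.05, and crosses are the values under total-count scaling. C3 was at -0.77 untreated, 0.47 after LPS 2 h and -1.47 after LPS 6 h, and for the C1q chains the crosses at 6 h lie above 0 while the TMM values lie near or below it.

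More members differed between the ligands in WT than in KO at 6 h. LPS against LTA at 6 h gave 1 of 8 members called in KO (C3, lower; 2.66% of all genes) and 8 of 8 in WT, 7 higher and 1 lower (31.8%). The KO count was 3 with DESeq2 and 2 with the replicate block. The WT rises that were not described above were 0.23 ± 0.05 for C1qa, 0.27 ± 0.04 for C1qb, 0.19 ± 0.04 for C1qc and 0.13 ± 0.04 for Cfp (adjusted p 4.37e-05, 2.3e-07, 3.48e-05 and 0.0134), and Cfp missed the threshold under total counts (0.03, adjusted p 0.591) and without WT LPS 6 h replicate 2, WT LPS 6 h replicate 3 or WT LTA 6 h replicate 2 (adjusted p up to 0.188). The genotype difference in this ligand contrast was called for 5 members, C3, Cfb, C1qb, C3ar1 and C5ar1 (22.7% of all genes). Its C1qb value missed the threshold under total counts (-0.13, adjusted p 0.0676, edgeR). At 2 h 1 member was called in KO, C1qa (0.26 ± 0.05, adjusted p 0.00175; 1.4% of all genes), and without KO LTA 2 h replicate 3 none was. In WT 0 were called at 2 h by edgeR (1.2% of all genes), with 1 at an unadjusted p under 0.05, and DESeq2 likewise gave 0. The genotype difference in the ligand contrast was called for 0 members at 2 h by edgeR (0.126% of all genes), with 0 at an unadjusted p under 0.05 and 0 with DESeq2.

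The genotype difference in the response itself was called for 6 members with LPS at 6 h, 2 higher and 4 lower (50.5% of all genes), and for 3 with LTA at 6 h, 2 higher and 1 lower (44.9%). Under total counts 8 were called in each, with 6 higher and 2 lower for LPS and 7 higher and 1 lower for LTA, Cfb being the lower one in LTA and C3 and Cfb in LPS. Of the differences called in the main test, those of Cfb and C3ar1 thus kept their direction for both ligands. The C3 difference and that of C5ar1 (0.75 under total counts) did so for LPS, and that of C1qa (0.61) for LTA.

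Markers of other cells were set beside these values. Summed fibroblast markers, 6 of 6 genes in the table, were at 10.3 to 12.7 CPM in KO LPS 6 h, 40.1 to 43.3 CPM in WT LPS 6 h, 8.83 to 10.9 CPM in KO LTA 6 h and 75.5 to 77.4 CPM in WT LTA 6 h, and at 4.24 to 4.73 CPM in untreated KO and 5.00 to 5.83 CPM in untreated WT. Summed dendritic cell markers (5 of 5 genes) were at 1.70 to 2.44 CPM in KO LPS 6 h, 8.83 to 11.3 CPM in WT LPS 6 h, 1.28 to 1.69 CPM in KO LTA 6 h, 8.41 to 10.0 CPM in WT LTA 6 h, 0.408 to 1.90 CPM in untreated KO and 1.88 to 2.08 CPM in untreated WT. Ccr7 alone supplied most of that sum in the WT 6 h groups, reaching 10.6 CPM. In the untreated and 6 h libraries Flt3, Zbtb46, Siglech and Clec9a peaked at 0.185, 0.647, 0.452 and 0.181 CPM. Among the fibroblast genes Pdgfrb, a receptor kinase gene, supplied most of the sum in the WT 6 h groups. Over the untreated and 6 h libraries it ran from 0.326 to 72.0 CPM, while the collagen gene Col1a1 stayed at 1.87 to 3.67 CPM. Summed macrophage markers were at 26563 to 28090 CPM in KO LPS 6 h, 19942 to 21423 CPM in WT LPS 6 h, 27411 to 28192 CPM in KO LTA 6 h, 24437 to 24646 CPM in WT LTA 6 h, 28115 to 28447 CPM in untreated KO and 29930 to 31444 CPM in untreated WT. Within that list Lyz2 averaged 19435 CPM over the 18 untreated and 6 h libraries. All these sums are shares of total counts. TMM factors averaged 0.699 in WT LPS 6 h and 0.748 in WT LTA 6 h, against 1.13 in untreated WT. Dividing by them would raise the WT 6 h sums and lower the untreated WT sums, so no direction is given for macrophage markers in WT. The part of these lists in the falls of C1qa and C3ar1 or the rise of C3 was not tested. In these bulk libraries a smaller share of expressing cells and less RNA per cell cannot be told apart.

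Other complement genes followed no single direction. Of 47 listed genes 39 were in the table, and 17 of those passed the filter, among them C1ra, C1rb, C2, Cd55, Cd59a, C5ar2, Itgam, Itgax and Cd93; the 22 that did not pass include C4a, C4b, Masp1, Hc and Serping1. C1ra and C1rb are near-identical copies, as are C4a and C4b, so the split of reads within each pair is uncertain. In the KO responses 9 of the 17 were called with LPS, 5 higher and 4 lower (52.3% of all genes), and 6 with LTA, 2 higher and 4 lower (52.2%). In WT 16 were called with LPS, 9 higher and 7 lower (72.7%), and 14 with LTA, 6 higher and 8 lower (71.3%). Under total counts the splits were 3 higher and 9 lower with LPS and 1 higher and 10 lower with LTA in KO, and 2 higher and 11 lower with LPS and 1 higher and 11 lower with LTA in WT. KO against WT gave 2 lower in untreated cells (Cd55 and Itgax, which encodes an integrin chain of a complement receptor; 13.5% of all genes), 4 higher and 8 lower after LPS (63.3%), and 5 higher and 5 lower after LTA (58.5%). The 6 h splits were 8 higher and 2 lower and 9 higher and 1 lower under total counts, and 2 higher and 8 lower after LPS with relative log expression factors.

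Cd55, which encodes decay-accelerating factor, a membrane inhibitor of the C3 convertases, rose in both genotypes. It averaged 12.2 ± 1.3 CPM in KO LPS 6 h and 2.82 ± 0.21 CPM in untreated KO, against 16.5 ± 2.8 CPM in WT LPS 6 h and 4.70 ± 0.80 CPM in untreated WT (SD, n = 3 each). The rises were 2.11 ± 0.14 in KO and 1.82 ± 0.13 in WT (adjusted p 7.46e-19 and 1.43e-18, edgeR). KO against WT was -0.44 ± 0.11 after LPS (adjusted p 0.000349), with overlapping libraries, and scaled by total counts it averaged 12.3 CPM in KO and 11.5 CPM in WT, the other order. After LTA Cd55 averaged 12.1 ± 0.35 CPM in KO and 24.9 ± 1.6 CPM in WT (-1.05 ± 0.10, adjusted p 1.26e-13).

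Cd59a, which encodes an inhibitor of the membrane attack complex, fell with LPS by 0.49 in KO and by 1.10 in WT (SE 0.11 and 0.12, adjusted p 8.24e-05 and 8.94e-12, edgeR). Its paralog Cd59b lies beside it, and whether the 2 genes share reads was not tested. Cd93, once described as a C1q receptor, fell with LPS by 0.81 in KO and by 1.15 in WT (SE 0.04 each, adjusted p 3.07e-23 and 4.96e-30). It averaged 227 ± 8.1 CPM in KO LPS 6 h and 398 ± 10 CPM in untreated KO, against 186 ± 8.0 CPM in WT LPS 6 h and 411 ± 31 CPM in untreated WT (SD, n = 3 each). KO lay above WT by 0.29 ± 0.05 after LPS and by 0.28 ± 0.05 after LTA (adjusted p 1.22e-07 and 2.99e-07), with no overlap of the libraries.

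Across the 18 untreated and 6 h libraries, the tested genes whose log2 CPM followed each member most closely were taken from 9050 named genes. For C3 they were Pdpn, M6pr and Rab32 (Pearson r 0.99 for each), and for Cfb Ext1, Myd88 and Kpna3 (r 0.998, 0.996 and 0.996). C3ar1 was followed by S1pr2, Slc12a7 and Zc3h12d (r 0.985, 0.985 and 0.984) and C5ar1 by Hdgf, Pot1b and Pabpn1 (r 0.959, 0.955 and 0.952). C1qa shared Pkig and Txnip with C1qc among its 3, with Cd81 as the other for C1qa and Cdk6 for C1qc (r 0.960 to 0.980), while C1qb had Ppdpf, Hmox2 and Itm2b. Between members, r was 0.97 for C3 with Cfb, 0.95 for C1qa with C1qc and -0.86 for C3ar1 with C5ar1. These describe 6 groups of libraries that share treatments and scaling factors, and only 7 of the 24 genes found for the 8 members were the same when total counts were used.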

How the data were processed

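RNA-seq counts per gene were analysed in 30 libraries of mouse macrophages, 3 in each of 10 groups. The tools named by the submitters' processing notes are STAR 2.7.11, featureCounts with Subread 2.1.1, fastp 0.24.0 and SAMtools 1.22.1, with builds GRCm38 and mm10. Role, order and strand setting are not stated there. The deposited table holds expected counts made by the authors, since 25.19% of values above 0 are not whole numbers, so they were rounded for testing. Gene names and coordinates came from a GRCm38 annotation, which named 26314 of 32361 identifiers; the 6047 others held 1.31% to 3.87% of each library. A count of 3 corresponds to 0.222 to 0.282 CPM in the untreated and 6 h libraries and to 1.13 to 2.25 CPM at 2 h.

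Counts were tested with edgeR 4.0.16 (R 4.3.3) by its quasi-likelihood test with TMM factors, 1 coefficient per group over all 30 libraries, a filter of 10 counts (total 15) that left 15119 genes, and Benjamini-Hochberg adjustment within each comparison at 0.05. Standard errors are the log2 fold change over the root of its F statistic, with the spread of a gene estimated over all groups together. Replicates differed more in some groups than in others. Chi-square per degree of freedom between pairs of replicate libraries was 3.12 to 9.56 in WT LPS 6 h and 1.53 to 6.25 in untreated WT. In untreated KO it was 1.22 to 1.75. Pearson r used log2 CPM with a prior count of 2. The procedure was tested on simulated counts in which few genes changed, up and down in equal number, so the choice of scaling was not tested there. Named genes were the 8 members, other complement genes past the threshold with an absolute log2 fold change of at least 1 in KO against WT with LPS 6 h or WT LPS 6 h against untreated, and the 3 genes most like each member; some genes that meet this rule are not reported here. The members and lists were chosen with earlier results of these data known. Alternatives were relative log expression factors, total counts, no filter, unrounded counts, each library set alone, the replicate number as a block, DESeq2 1.42.0, each library left out, and Cfb summed with Gm20547. Comparisons with the same untreated libraries share those controls. Groups of a genotype also share animals, but the main fit held no term for the animal. Its standard errors and p-values treat the 30 libraries as independent.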

Additional observations from a re-analysis of the deposited data

Results flagged for a closer look

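The following differences between 2 genotypes in a response, or between 2 times in a genotype gap, were singled out because the test of the difference itself passed an adjusted p of 0.05 in edgeR's quasi-likelihood test. All are log2 values, and no explanation was tested. In the LPS 6 h response, KO minus WT was -0.70 for C3, -3.71 for Cfb, -0.24 for C1qb, -0.26 for Cfp, 0.35 for C3ar1 and 0.24 for C5ar1; the values of C1qb and Cfp turn to 0.26 and 0.24 under total counts. In the LTA 6 h response it was -2.36 for Cfb, 0.20 for C1qa and 1.49 for C3ar1; the C1qa value was 0.12 with relative log expression factors (adjusted p 0.124) and with DESeq2 (adjusted p 0.152), and it also lost its call without WT LTA 6 h replicate 1 or 2 (down to 0.09, adjusted p up to 0.298). In the contrast of LPS with LTA at 6 h it was -0.58 for C3, -1.35 for Cfb, -0.21 for C1qb, -1.14 for C3ar1 and 0.35 for C5ar1. The C1qb value there was -0.13 under total counts and missed the threshold (adjusted p 0.0676, edgeR).

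In the 2 h responses, where the library set differs from that of the untreated cells in both genotypes, KO minus WT was 1.24 for C3, 0.53 for C3ar1 and 0.28 for C5ar1 with LPS, and 1.07 for C3, 0.51 for C3ar1 and 0.32 for C5ar1 with LTA. The genotype gap at 2 h minus that at 6 h was 1.94 for C3, 4.69 for Cfb, 0.24 for C1qb, 0.38 for Cfp and 0.18 for C3ar1 with LPS. With LTA it was 1.18 for C3, 3.05 for Cfb, -0.33 for C1qa, -0.17 for C1qc, 0.25 for Cfp, -0.98 for C3ar1 and 0.42 for C5ar1. With LPS the C1qb, Cfp and C3ar1 gaps turn to -0.37, -0.23 and -0.43 under total counts, and with LTA the Cfp and C5ar1 gaps turn to -0.25 and -0.08. The C3ar1 gap with LPS lost its call without KO LPS 2 h replicate 3, KO LPS 6 h replicate 2 or 3, WT LPS 2 h replicate 2 or WT LPS 6 h replicate 2 (down to 0.13, adjusted p up to 0.124), and with no filter (0.12, adjusted p 0.265). The C1qc gap with LTA lost it without WT LTA 6 h replicate 1 or 2 (adjusted p up to 0.0906), with relative log expression factors (adjusted p 0.0763) and with DESeq2 (adjusted p 0.0561). Time and library set change together in these gaps, and the 2 h Cfb values rest on 2 to 5.5 counts.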

How the results depend on the processing

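Of 200 log2 values, 185 kept both their sign and their side of the threshold with relative log expression factors, 180 with DESeq2, 183 with no filter, 199 with unrounded counts and 147 with total counts, as did 127 of 131 within each library set alone and 1459 of 1584 with 1 library left out. Values that passed neither test turned sign in 3, 4, 9, 1, 12, 0 and 69 cases under the same alternatives in the same order. Sign turns of a value that passed before or after numbered 30 with total counts and 0 with each other alternative. They were -0.64, -0.36 and -0.60 for C1qb, Cfp and C5ar1 in WT LPS 6 h, -0.39 and -0.18 for Cfp and C5ar1 in WT LTA 6 h, and -0.12 and -0.11 for Cfp with LPS and LTA in KO. KO against WT turned to 0.44, 0.28, 0.48 and 0.20 for C1qa, C1qb, C1qc and Cfp after LPS 6 h, and to 0.43, 0.41, 0.24 and 0.13 for C1qa, C1qb, Cfp and C5ar1 after LTA 6 h. The genotype difference turned to 0.26, 0.47 and 0.24 for C1qb, C1qc and Cfp with LPS, and to 0.31, 0.39, 0.28 and 0.32 for C3, C1qb, Cfp and C5ar1 with LTA. The 2 h minus 6 h gap turned to -0.37, -0.61, -0.23, -0.43 and -0.58 for C1qb, C1qc, Cfp, C3ar1 and C5ar1 with LPS, and to -0.495, -0.25 and -0.083 for C1qb, Cfp and C5ar1 with LTA.

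Members called in the genotype difference of the LTA 6 h response, 3 in the main test, were 5 with relative log expression factors or DESeq2, 8 with total counts and 3 to 5 with 1 library left out (5 without WT LTA 6 h replicate 3). Total counts gave 8 members against 5 in KO against WT after LPS 6 h and in its 2 h minus 6 h gap, 5 against 3 in the LTA 2 h genotype difference, 11 other complement genes against 6 in KO LTA 6 h, and 7 of 24 like genes. Other complement genes in untreated KO against WT, 2 in the main test, were 1 with no filter or DESeq2 and 1 to 2 with 1 library left out (1 without replicate 2 or 3 of either genotype). KO LPS against LTA at 6 h, with 1 member called, gave 2 with no filter, 3 with DESeq2 and 1 to 2 with 1 library left out, the 2 without KO LPS 6 h replicate 1; at 2 h the count was 0 to 1. The cause was not tested. Between genotypes in the same condition, the correlations of deviations of libraries with equal replicate numbers ran from -0.022 to 0.185 over 15 pairs. The highest was LPS 6 h replicate 1, the only pair over 0.1. Within a genotype they ran from -0.067 to 0.048 over 60 pairs. No source used here states whether equal replicate numbers in different groups of a genotype are the same animal. The replicate block, which rests on this unstated matching of numbers, changed 1 of 200 calls. That was C1qa in KO LPS against LTA at 6 h (0.15, adjusted p 0.0468, edgeR), so 2 members were called there instead of 1. At 2 h depth limits Cfb.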
